A study of Mus musculus with 2 samples.

Results

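Distal open-chromatin sites that carried at least 5 DNase footprints in each of 2 libraries of mouse gastrocnemius muscle are described here. DNase-seq had been run by ENCODE on the gastrocnemius, the large calf muscle, of female B6CASTF1/J mice, an F1 hybrid strain, aged 14 days. The data comprised 2 biological replicates of 1 group with no treated or control arm. Each biosample label names 3 females (pooled, as far as that label goes), both biosamples carry one donor record, and instruments are named for replicate 2 only, so the sequencing run and the replicate cannot be told apart. A site was a merged region holding a strict peak of both libraries, and 68349 sites were shared. Of these, 44700 were distal, with a midpoint over 1 kb from every protein-coding transcription start site (TSS) of GENCODE M21 on mm10, and 44166 of the distal sites were at most 400 bp wide. In that set, 1683 sites overlapped 5 or more footprints in each library (3.81%). They were selected on their footprint counts, so every value that comes from footprints or from the strength of the cutting is given as a description, with no test.

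DNase I cuts accessible DNA, and a protein bound within an accessible stretch shields the bases it covers, leaving a short protected gap between cut sites that is called a footprint. Enhancers and other distal elements hold several transcription factors side by side, so a distal site can hold several footprints. In skeletal muscle, factors known to act at such elements include MyoD and its relatives at E-boxes, MEF2, TEAD and NFI proteins. The deposited footprints name no protein, and a letter match under one identifies neither a factor nor a function.

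The sites printed next were chosen because they show where both libraries placed their footprints. They run from signals of 3.00 and 2.88 near Stac3 to strong GC-rich sites. All lie in the strongest 20% of narrow distal sites by mean signal, so the weaker members are not shown. Each is the GRCm38 (mm10) C57BL/6J reference, plus strand, 5′ to 3′, not the sequence of the hybrid animals. Capitals mark bases under a footprint in both libraries. Each is named by the gene with the nearest protein-coding TSS, which is a position and not a target.
Casq1, chr1:172217241-172217400: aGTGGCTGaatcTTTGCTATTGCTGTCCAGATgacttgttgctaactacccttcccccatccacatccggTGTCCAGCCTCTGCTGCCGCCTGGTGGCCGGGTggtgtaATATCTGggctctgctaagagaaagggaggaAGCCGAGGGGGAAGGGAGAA
Stac3, chr10:127509641-127509820: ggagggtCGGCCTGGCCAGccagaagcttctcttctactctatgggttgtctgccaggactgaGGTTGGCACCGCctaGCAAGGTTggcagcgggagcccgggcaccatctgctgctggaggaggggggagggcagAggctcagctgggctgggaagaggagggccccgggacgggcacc
Hlf, chr11:90417981-90418240: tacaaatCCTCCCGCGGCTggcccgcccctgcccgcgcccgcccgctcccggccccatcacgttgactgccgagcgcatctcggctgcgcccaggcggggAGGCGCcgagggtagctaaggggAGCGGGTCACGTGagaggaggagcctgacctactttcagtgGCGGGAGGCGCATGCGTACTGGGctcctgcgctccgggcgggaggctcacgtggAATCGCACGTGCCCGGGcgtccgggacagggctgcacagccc
Creld2, chr15:88839301-88839580: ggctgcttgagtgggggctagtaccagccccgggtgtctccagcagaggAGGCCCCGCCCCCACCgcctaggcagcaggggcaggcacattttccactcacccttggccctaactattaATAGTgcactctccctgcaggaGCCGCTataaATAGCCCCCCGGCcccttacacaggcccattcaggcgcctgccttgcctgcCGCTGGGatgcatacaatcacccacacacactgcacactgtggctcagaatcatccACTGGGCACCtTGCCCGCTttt
Fos, chr12:85497861-85498160: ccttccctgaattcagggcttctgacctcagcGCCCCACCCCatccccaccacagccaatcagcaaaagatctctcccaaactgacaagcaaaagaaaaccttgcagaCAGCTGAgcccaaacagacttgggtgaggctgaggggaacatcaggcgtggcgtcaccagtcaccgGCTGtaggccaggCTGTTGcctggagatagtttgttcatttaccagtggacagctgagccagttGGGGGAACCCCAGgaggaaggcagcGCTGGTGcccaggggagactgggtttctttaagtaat
Nfic, chr10:81416901-81417200: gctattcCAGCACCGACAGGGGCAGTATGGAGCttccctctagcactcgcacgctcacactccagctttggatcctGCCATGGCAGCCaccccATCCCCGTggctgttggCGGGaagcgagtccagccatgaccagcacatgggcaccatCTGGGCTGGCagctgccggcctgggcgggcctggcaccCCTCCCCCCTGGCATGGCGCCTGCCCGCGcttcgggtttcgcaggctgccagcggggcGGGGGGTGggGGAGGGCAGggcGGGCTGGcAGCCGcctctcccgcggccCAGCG
Kdm6b, chr11:69418821-69419120: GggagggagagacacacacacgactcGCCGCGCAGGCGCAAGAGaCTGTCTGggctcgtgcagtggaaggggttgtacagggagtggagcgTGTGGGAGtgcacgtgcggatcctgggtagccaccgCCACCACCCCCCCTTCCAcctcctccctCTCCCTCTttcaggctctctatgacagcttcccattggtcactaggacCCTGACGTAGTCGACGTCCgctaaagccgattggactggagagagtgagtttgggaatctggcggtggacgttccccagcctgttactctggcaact
Igf1r, chr7:67951661-67951900: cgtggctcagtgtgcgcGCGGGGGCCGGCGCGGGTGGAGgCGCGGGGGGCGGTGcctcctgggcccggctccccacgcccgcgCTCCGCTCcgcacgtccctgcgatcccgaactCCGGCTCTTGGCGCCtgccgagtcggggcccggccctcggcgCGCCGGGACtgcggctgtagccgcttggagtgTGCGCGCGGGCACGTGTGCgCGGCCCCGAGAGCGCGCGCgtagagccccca
Zfp395, chr14:65343741-65344020: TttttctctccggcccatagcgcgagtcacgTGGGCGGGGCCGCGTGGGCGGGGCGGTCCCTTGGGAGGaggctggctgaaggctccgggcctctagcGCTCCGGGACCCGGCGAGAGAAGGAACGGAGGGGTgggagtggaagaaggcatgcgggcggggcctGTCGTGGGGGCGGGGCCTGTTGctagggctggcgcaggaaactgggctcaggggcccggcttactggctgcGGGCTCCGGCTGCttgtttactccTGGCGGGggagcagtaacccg
Ccne1, chr7:38084901-38085180: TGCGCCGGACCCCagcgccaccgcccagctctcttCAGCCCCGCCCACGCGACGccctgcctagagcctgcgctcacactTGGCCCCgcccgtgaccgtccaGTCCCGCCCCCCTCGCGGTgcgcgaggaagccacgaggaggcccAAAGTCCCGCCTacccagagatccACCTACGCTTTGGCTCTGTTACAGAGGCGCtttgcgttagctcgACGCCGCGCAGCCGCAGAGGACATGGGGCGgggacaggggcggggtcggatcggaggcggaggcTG

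The Casq1 site (chr1:172217241-172217400), in an intron 2.39 kb downstream of a TSS of Casq1, the calsequestrin that stores calcium in the sarcoplasmic reticulum, was among the narrowest, at 160 bp. It had 5 footprints in each library and a peak signal, the authors' value per peak, of 11.6 in replicate 1 and 10.7 in replicate 2. All 5 footprints of replicate 1 had a counterpart in replicate 2. A CTCF core (bases 86 to 97 counted from the site's start, minus strand) lay within a footprint called at bases 71 to 103 in both libraries. The calls therefore coincided base for base at that stretch, whereas a neighbour spanned bases 105 to 121 in replicate 1 and bases 110 to 116 in replicate 2.

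The Hlf site (chr11:90417981-90418240) lay between genes, 27.2 kb upstream of Hlf, which encodes a PAR bZIP factor of the circadian output. It had 5 footprints in each library, with signals of 24.5 and 20.4. It held 3 copies of CACGTG, the E-box bound by CLOCK, BMAL1, USF and MYC proteins. The copies at bases 131 to 136 and 224 to 229 were touched by footprints in both libraries and the copy at bases 212 to 217 in replicate 1 only. A footprint at bases 165 to 187, which holds no match to any of the 28 motifs searched, was called with identical ends in both libraries.

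The Creld2 site (chr15:88839301-88839580), between genes and 19.8 kb downstream of a TSS of Creld2, an endoplasmic reticulum protein, had 7 footprints in replicate 1 and 8 in replicate 2, with signals of 3.51 and 2.88. It held 2 matches to the MEF2 consensus, at bases 114 to 123 and 146 to 155. Each was touched by a footprint in both libraries, but the ends differed: replicate 1 had footprints at bases 141 to 147 and 152 to 164, where replicate 2 had one at bases 142 to 164. The Stac3 site (chr10:127509641-127509820), 2.51 kb downstream of a TSS of the excitation-contraction coupling gene Stac3, had 5 and 7 footprints and signals of 3.00 and 2.88. Its pair of TTGGCA sites, the shorter site of NFI factors, was touched in both libraries, the first inside a footprint with identical ends (bases 64 to 75).

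Among the strong sequences, the Ccne1 site (chr7:38084901-38085180), 14.3 kb downstream of a TSS of the cyclin E1 gene, had 8 footprints in each library at signals of 31.5 and 24.99. It had 132 of its 280 bases covered in both. It held 6 copies of the SP/KLF box GGGCGG, 4 of them touched in both libraries, and a CTCF core touched in neither. The Zfp395 site (chr14:65343741-65344020), with 6 and 6 footprints at 31.2 and 26.9, held 5 such boxes, 4 of them touched in both. The Nfic site (chr10:81416901-81417200), in an intron 9.41 kb upstream of a TSS of the NFI family gene Nfic and 754 bp from the nearest TSS of any annotated gene, had 9 footprints in replicate 1 and 11 in replicate 2 at 10.4 and 8.22. Its CAGCTG E-box at bases 160 to 165 was touched at an edge in both libraries. The Igf1r site (chr7:67951661-67951900), 1.05 kb upstream of a TSS of the insulin-like growth factor receptor gene, had 5 and 7 footprints at 14.6 and 11.9 and a GC content of 80.0%. The Kdm6b site shown (chr11:69418821-69419120), near a histone H3K27 demethylase gene, had 7 and 8 footprints at 15.1 and 11.6, with an NRF1 consensus under a footprint in both. The weaker Fos site (chr12:85497861-85498160), 23.1 kb downstream of a TSS of Fos, an AP-1 subunit, had 6 and 5 at 3.41 and 3.60. It held 2 copies of CAGCTG, 1 of them touched in both libraries.

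Across all narrow distal sites the number of footprints per site varied together in both libraries, though far from perfectly. Replicate 1 had 5 or more at 5122 sites (11.6%) and replicate 2 at 3986 (9.03%). The 1683 sites common to both lists were 32.9% of the first list and 42.2% of the second. Of the 3439 sites that reached 5 in replicate 1 only, 1400 had 4 in replicate 2 and 193 had 1 or 0. Of the 2303 that reached 5 in replicate 2 only, 1162 had 4 in replicate 1 and 67 had 1 or 0. The rank correlation (Spearman) of the counts over the 44166 sites was 0.476, a description over sites that share their position, width and openness in both libraries. The highest counts were 13 in replicate 1 and 12 in replicate 2.

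**Figure D1:**
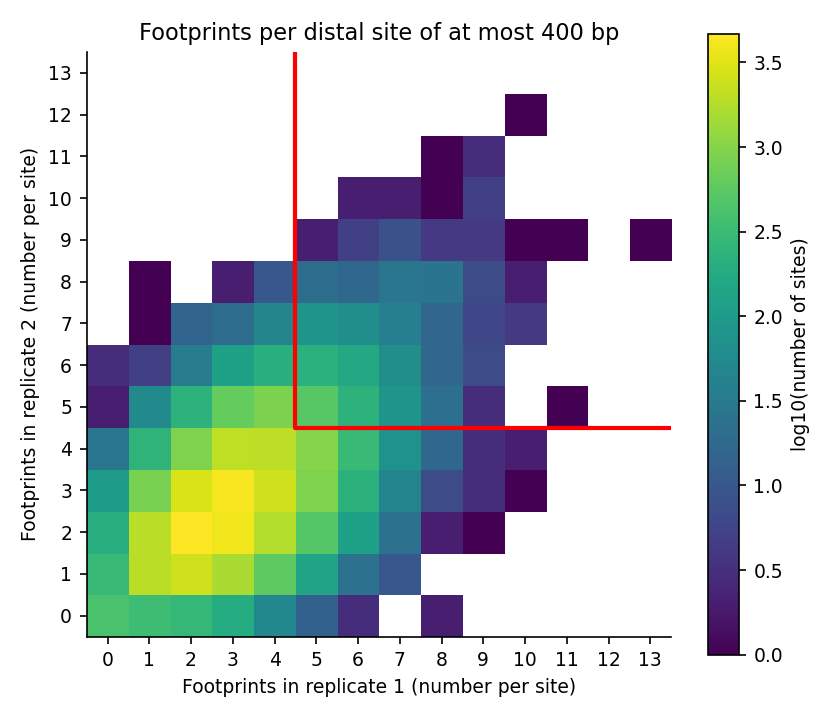
Footprints per site in replicate 1 (x axis) and replicate 2 (y axis) for the 44166 shared distal sites of at most 400 bp; colour is log10 of the number of sites, white squares hold none, and the red corner encloses the 1683 sites with 5 or more in each. Most sites lay at 1 to 4 footprints in both libraries, and the enclosed sites thin out from 5 and 5 (521 sites) toward the highest counts.

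The group sat mainly at its own threshold. Exactly 5 in both libraries was found at 521 sites, and the lower of both counts was 5 at 1184. The lower count was at least 7 at 159 sites and at least 8 at 57. Just outside, 4581 sites had a lower count of 4, with median signals of 3.02 in replicate 1 and 2.67 in replicate 2 and a median width of 200 bp. Just inside, the 1184 sites at 5 had 3.86 and 3.30 and a median width of 220 bp, so both sides of the threshold lay close together. By width, 54 sites were 381 to 400 bp, and of 105 distal sites of 401 to 420 bp, 46 had 5 or more in both.

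Of the 6 sites with most footprints summed over both libraries, 3 were of moderate strength. The site with most calls in replicate 1, near the phospholipase gene Plcd3 (chr11:103067661-103068000), had 13 and 9 footprints and signals of 4.47 and 5.05. Those 13 footprints covered 58.5% of it in replicate 1, while the 9 of replicate 2 covered 29.7%. A site near 2700081O15Rik (chr19:7423321-7423720) had 10 and 12 at 4.12 and 3.38. One in an intron, 18.9 kb downstream of a TSS of the phosphoglucomutase gene Pgm1 (chr4:99974421-99974780), had 11 and 9 at 3.55 and 2.58, with 3 copies of CAGCTG, 2 of them touched in both libraries. The other sites with high sums were stronger, the Nfic site shown above among them. At 59.4 kb from a TSS of Gm42906 (chr5:151368521-151368920) there were 9 and 11 at 33.7 and 25.1. At 52.2 kb from a TSS of Wnt7b, a secreted ligand gene (chr15:85634461-85634840), there were 9 and 11 at 29.0 and 22.9. The Gm42906 site had its midpoint 3 bp from the TSS of another annotated, non-coding gene, so it is distal only by the protein-coding rule.

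Sites with many footprints were wider and stronger than the other 42483 narrow distal sites. Their median width was 240 bp (quartiles 200 and 300) against 180 bp. In replicate 1 their median signal was 4.08 (quartiles 2.56 and 6.62, range 0.593 to 33.7), against 1.59 for the other sites. In replicate 2 it was 3.50 (quartiles 2.20 and 5.64, range 0.578 to 26.9), against 1.42. The distributions overlapped, since the lowest members lay below the median of the other sites in both libraries. The log2 ratio of signals (replicate 2 over replicate 1), centred on its median over all shared sites, had a median of -0.10, against 0.00 at the other sites, a shift toward replicate 1. Among sites of 220 to 300 bp in the strongest 20% by mean signal the median was -0.12 in members and -0.12 in the others, so the shift was shared by other sites of like width and strength. In a tissue of many cell types, a weak site open in all cells cannot be told apart from a strong site open in a few.

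**Figure D2:**
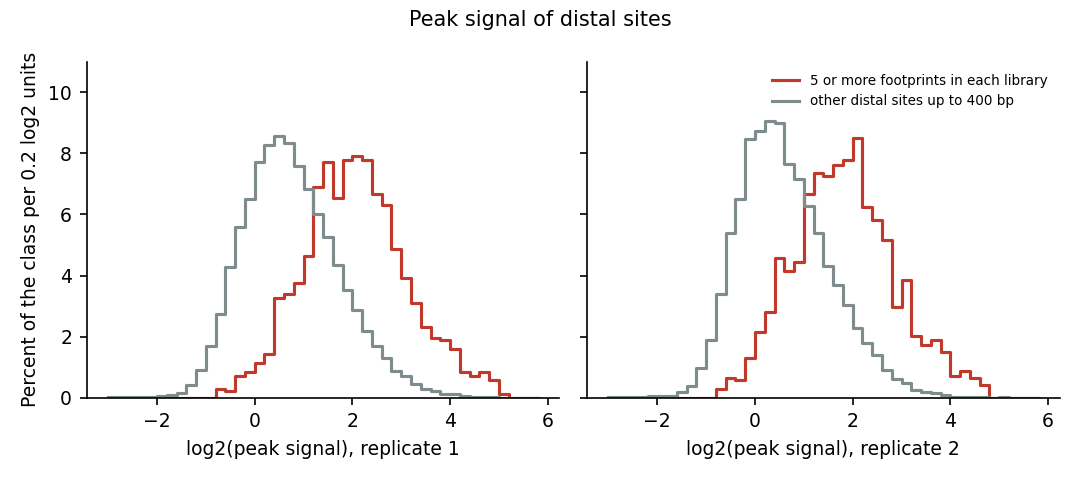
Distribution of log2 peak signal (x axis) in each library as a percent of each class per bin of 0.2 log2 units (y axis), for the 1683 many-footprint sites (red) and the 42483 other distal sites of at most 400 bp (grey). The red curves lie to the right in both libraries, with medians of 4.08 and 3.50 against 1.59 and 1.42 before the log, and overlap the grey ones.

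Both strength and width moved with membership. Ordered by mean signal in deciles, members made up 0.136% of the weakest decile (6 of 4414), 1.58% of the fifth, 5.34% of the eighth and 16.8% of the strongest (743 of 4417). By width, they made up 0.563% of sites up to 160 bp and 2.25% of those of 161 to 200 bp. The share was 13.1% at 241 to 280 bp and 32.6% at 361 to 400 bp. Median signals differed little among widths above 160 bp, from 1.62 to 1.74. Whether fewer reads at weak sites lowered the number of footprints called there was not tested, because the sources used here give no read totals. For scale, 20.1% of promoter sites up to 400 bp (4440 of 22099) and 47.4% of distal sites over 400 bp (253 of 534) met the same count.

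Members had a median of 2.31 footprints per 100 bp in replicate 1 and 2.33 in replicate 2, against 1.50 and 1.34. Footprints covered a median of 35.0% of a member's bases in replicate 1 and 31.5% in replicate 2, and 24.0% in both at once. At the other sites the medians were 22.2%, 19.0% and 13.8%. These measures come from the counts that selected the sites and support nothing by themselves.

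The members held 9800 footprints in replicate 1, with a median width of 13 bp (range 7 to 80), and 9790 in replicate 2, with a median of 11 bp (range 7 to 55). At all other narrow distal sites the median widths were 12 and 11 bp, close to those of the members, and at the others in the strongest 20% by mean signal 18 and 16 bp. Footprints of up to 10 bp made up 38.6% and 45.3% in members, against 41.4% and 44.9% at all other sites. The median gap between neighbours was 25 bp in replicate 1 and 24 bp in replicate 2, against 32 bp in each at all other sites, and 29.4% and 29.9% of gaps were under 10 bp. When footprints separated by under 10 bp were joined, 509 of the 1683 sites (30.2%) still had 5 in each library. Counting only footprints wholly inside the site left 1301 (77.3%).

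Counterparts in the other library, defined as an overlap of 50% or more of the shorter footprint, were found for 73.7% of replicate 1 footprints (Wilson 95% interval 72.9 to 74.6) and 76.6% of replicate 2 footprints (75.8 to 77.5). The intervals cover counting error over footprints only. The corresponding shares were 62.4% and 70.3% at all other narrow distal sites but 75.8% and 82.6% at those in the strongest 20%. At 727 members (43.2%) at least 5 footprints of replicate 1 had a counterpart, at 325 (19.3%) all had one, and at 102 (6.06%) no more than 2 had one. The count of 5 in each library was thus met in many sites by footprints that were not the same in both.

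Position within the site was compared among sites of 220 to 300 bp in the strongest 20%, 501 members and 1218 others, so that width and strength were alike in range. Within 20 bp of the midpoint, the mean share of members with a footprint at a base was 42.8% in replicate 1 and 40.3% in replicate 2, against 40.3% and 37.0%. From there to 70 bp it was 39.1% and 36.8%, against 30.3% and 27.2%. Beyond 70 bp it was 34.7% and 31.9%, against 22.9% and 18.9%. The classes thus lay closest at the midpoint and farther apart in both outer zones, a description of values the counts selected on. Within this range the members were still wider, with a median of 260 bp against 240 bp. They were also stronger, with median signals of 6.34 and 5.22 against 4.53 and 3.76.

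**Figure D3:**
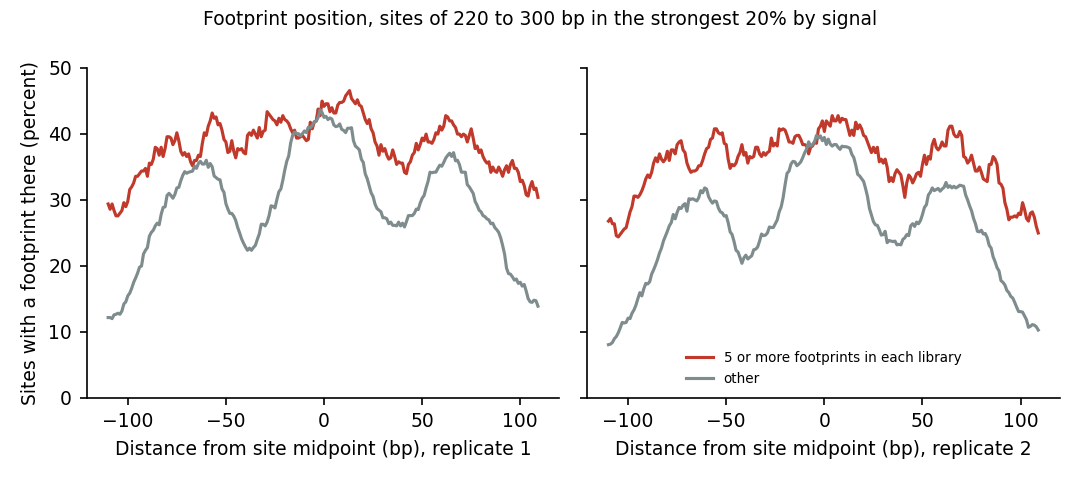
Percent of sites with a footprint at each base (y axis) by distance from the site midpoint in bp (x axis) in each library, for 501 many-footprint sites (red) and 1218 other distal sites (grey), all 220 to 300 bp wide and in the strongest 20% of signal. The classes lie close together at the midpoint (42.8% and 40.3% in replicate 1) and apart beyond 70 bp (34.7% and 22.9%).

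The zone of raised cutting around the sites, the stretch with a per-base false discovery rate below 0.05 as deposited, was also longer. Its median length was 525 bp in replicate 1 and 503 bp in replicate 2, against 287 and 274 bp at the other narrow distal sites. Among strong sites of 220 to 300 bp it was 645 and 627 bp in members, against 517.5 and 498 bp. The peaks thus covered part of a wider accessible stretch, and footprints outside the peak were not counted.

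Base composition was not used to choose the sites. Members had a median GC content of 57.8% (quartiles 53.8 and 62.1), against 54.0% at the other sites. A GC content of 65% or more was found at 282 members (16.8%), against 4.09% of the others. Their signals were higher, 7.50 and 6.71 at the median, against 3.75 and 3.15 for the 1401 remaining members. A midpoint within 1 kb of a TSS of some non-coding gene was found at 180 members (10.7%), against 5.45%. Those 180 sites are distal to protein-coding genes only. Repeat-masked sequence made up 50% or more of 8 members (0.475%), against 1.96%. Among the strong sites of 220 to 300 bp the difference in GC content was small, with medians of 60.8% and 59.5%. There, 27.9% of members and 21.02% of the others had a GC content of 65% or more, and 16.4% and 11.7% lay within 1 kb of a TSS of a non-coding gene.

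By location, 936 members lay between genes (55.6%, against 51.5% of all narrow distal sites), 630 in introns (37.4%, against 42.8%) and 117 on exons (6.95%, against 5.72%). The median distance to the nearest protein-coding TSS was 15922 bp, against 19950 bp at the other sites. It was over 100 kb for 176 members (10.5%), against 14.7%. Among strong sites of 220 to 300 bp the order turned. The median distance there was 14328 bp in members and 11575 bp in the others, and 7.39% and 6.24% lay beyond 100 kb. Another member lay within 5 kb of 107 members (6.36%), and the median distance to the next one was 175080 bp. Most thus had no other member within 5 kb. Distances to open sites outside the group, and the same share for other sites, are not given. On chromosome 11 lay 160 members (9.51%), against 7.61% of all narrow distal sites. Chromosome X went the other way, with 25 members (1.49%) against 1.92%. Shares for the remaining chromosomes are not given.

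Letter matches to 28 short consensus motifs, on either strand, were counted over whole sites, with a Wilson 95% interval that covers counting error over sites only. The rule did not read the letters. Many matches lie under footprints that entered the count, however, so the shares are not independent of the selection and are a description. Wider sites offer more positions for a match. Shares are therefore also given for 150 bp around the midpoint (or the whole site where narrower). Others are given for strong sites of 220 to 300 bp, called matched width and strength, and some for both. That match is in range only. Within it members were still wider (median 260 against 240 bp) and stronger, and more of them had a GC content of 65% or more. GGGCGG, the box of the SP and KLF families, was found at 500 members (29.7%, interval 27.6 to 31.9). It was found at 11.7% of the other sites (11.4 to 12.01) and 12.4% of all narrow distal sites. Within 150 bp the shares were 21.4% and 9.99%, and among strong sites of 220 to 300 bp 40.5% (36.3 to 44.9) and 32.2% (29.6 to 34.9). At least 3 copies stood at 106 members (6.30%), against 0.657%.

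Several rarer motifs were also counted. The NRF1 consensus, that of a regulator of genes for mitochondrial proteins, was found at 40 members (2.38%, interval 1.75 to 3.22), against 0.450% of other sites and 0.523% of all. TGACGTCA, the CREB and ATF palindrome, was found at 33 members (1.96%, 1.40 to 2.74), against 0.431% and 0.489%. Among strong sites of 220 to 300 bp, NRF1 stood at 4.59% (3.08 to 6.79) against 1.72% (1.13 to 2.62), and the CREB palindrome at 3.99% (2.60 to 6.09) against 0.739% (0.389 to 1.40). These intervals did not overlap. CCGGAAG, the ETS site, was found at 3.98% of members against 2.02%, with 2.1% of all sites. CCAATCA, an NFY site, was found at 4.28% against 1.95%, with 2.04% of all sites. At matched width and strength their intervals overlapped, with 5.39% against 5.09% for ETS and 5.99% against 4.52% for NFY. AAGATGGC, the YY1 site, was found at 1.07% of members against 1.21%, and at 1.20% against 1.48% at matched width and strength, with overlapping intervals.

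CAGCTG, the E-box bound by MyoD and myogenin among others, was found at 613 members (36.4%, interval 34.2 to 38.8), against 28.9% of the other sites (28.5 to 29.3) and 29.2% of all. At least 2 copies stood at 180 members (10.7%), against 5.71%. In 150 bp around the midpoint, however, the shares were 26.0% (24.0 to 28.2) and 25.2% (24.8 to 25.6). At matched width and strength they were 37.7% (33.6 to 42.0) and 41.3% (38.6 to 44.1). The excess over whole sites was therefore not present at equal length, and the intervals overlapped in both restrictions. CAGATG, another E-box, was found at 22.9% of members against 20.6% (20.6% of all sites). In 150 bp the order turned, to 14.6% (13.01 to 16.4) against 17.1% (16.8 to 17.5), and at matched width and strength it was 19.6% (16.3 to 23.3) against 23.4% (21.1 to 25.9). CACGTG was found at 7.49% (6.32 to 8.84) against 4.02% (4.15% of all), and at 9.98% against 9.11% at matched width and strength.

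Among the other motifs of muscle regulators, the MEF2 consensus was rare, at 15 members (0.891%, interval 0.541 to 1.47), against 0.671% of the others and 0.679% of all. Within 150 bp it was found at 0.654% against 0.537%, and at matched width and strength at 0.798% against 1.07%, with overlapping intervals. GGAATG, the TEAD site, was found at 15.5% of members against 12.5% (12.6% of all). Within 150 bp it was found at 9.69% against 10.1%. TGANTCA, the AP-1 site, was found at 12.5% against 9.37% (9.49% of all), and within 150 bp at 8.56% against 7.89%. TTGGCA, the shorter NFI site, was found at 25.9% against 19.96% (20.2% of all), and within 150 bp at 17.3% against 17.4%. No member held the full NFI palindrome, a count of 0 that allows a share of up to 0.178% by the limit of 3 counts in 1683 and 0.228% by the Wilson interval, where 0.120% of the other sites did.

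The CTCF core, that of the insulator and loop-anchoring factor, depended on what was compared. Over whole sites it was found at 185 members (10.99%, interval 9.59 to 12.6), against 10.2% of the others (9.94 to 10.5) and 10.3% of all. In the strongest 20% it was lower in members, 12.2% (10.4 to 14.3) against 18.3% (17.5 to 19.2). Among strong sites of 220 to 300 bp it was found at 10.2% (7.83 to 13.1) against 7.06% (5.75 to 8.64), with overlapping intervals. By the lower footprint count, the share was 2.65% at 0, 7.48% at 1 and 13.3% at 3. It was highest at 4 footprints, 14.0%, then 12.5% at 5, 8.24% at 6 and 5.66% at 7 or more. GGGCGG stood at 14.997% of sites with a lower count of 0, 9.04% at 1, 18.1% at 4, 25.5% at 5 and 49.1% at 7 or more. CAGCTG stood at 31.8% at 0, 27.8% at 1, 30.9% at 4 and 41.5% at 7 or more. Median GC content took a like course, with 55.4% at 0, 53.3% at 1 and 60.3% at 7 or more. Width also differed, from 169 bp at 1 to 280 bp at 6, and their part in these shares was not tested beyond the restrictions above.

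**Figure D4:**
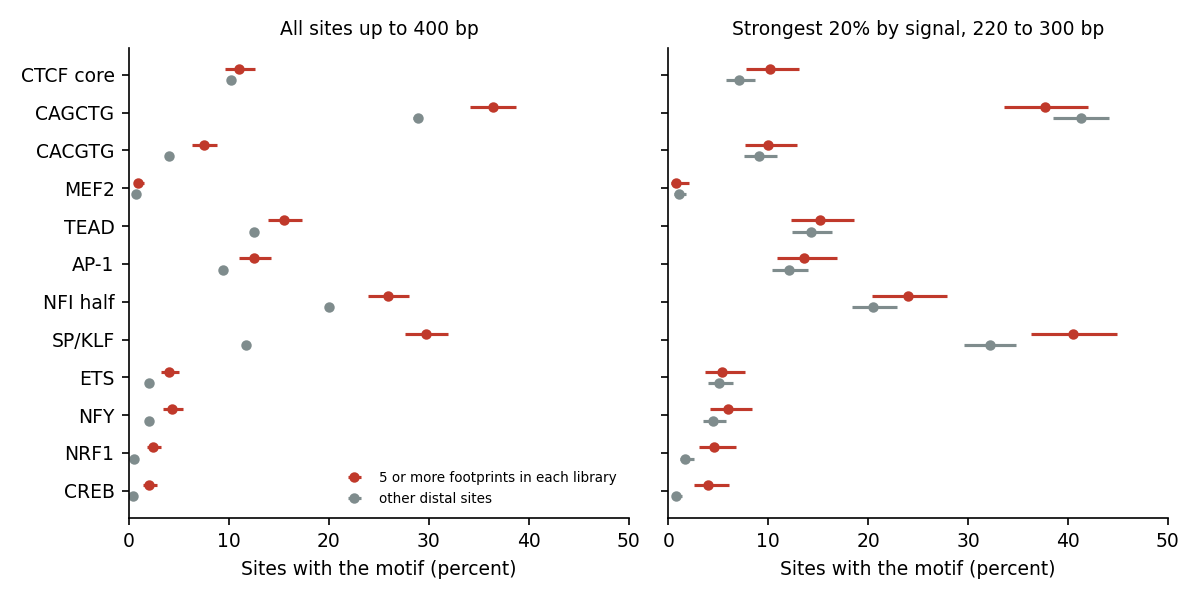
Percent of sites with each motif (x axis, mean and Wilson 95% interval) among many-footprint sites (red) and other distal sites (grey), for all sites up to 400 bp (left) and for sites of 220 to 300 bp in the strongest 20% of signal (right). SP/KLF, NRF1 and CREB remained apart on the right, where members were still wider and stronger, while CAGCTG stood at 37.7% and 41.3%.

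With GC content under 60% and over 1 kb from every annotated TSS, 998 members remained, a restriction chosen after the data were seen. There GGGCGG was found at 13.5% (interval 11.5 to 15.8), against 7.62% of other sites under the same restriction. The NRF1 consensus was found at 0.802% against 0.208%, and the CREB palindrome at 1.50% against 0.400%. CAGCTG was found at 39.4% (36.4 to 42.4) against 28.1%, and TTGGCA at 31.0% against 20.9%, over whole sites of unequal width.

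Whether matches in members were touched by a footprint differed widely among motifs. Any window of a given length in a member has a base rate, because footprints cover much of the site. For 6-letter windows 32.6% were touched by footprints of both libraries. Because footprints selected the sites, the shares below are a description, with no test. The CTCF core was touched in both at 165 of 191 matches (86.4%, interval 80.8 to 90.5), where the base rate for its length was 42.5%. The footprints over it had median widths of 29 bp in replicate 1 and 27 bp in replicate 2, wider than the members' overall medians. The CREB palindrome was touched at 32 of 35 (91.4%, base rate 36.0%), the NRF1 consensus at 43 of 49 (87.8%, base rate 39.3%) and the EBF palindrome at 37 of 44 (84.1%, base rate 39.3%). TTGGCA was touched at 364 of 525 (69.3%, 65.3 to 73.1) and GGGCGG at 563 of 903 (62.3%, 59.1 to 65.4). These intervals treat matches as independent, although several can lie in 1 site and under 1 footprint. The 903 GGGCGG matches, for example, lay in 500 members.

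In the members the E-boxes differed from each other. CACGTG was touched at 71 of 137 matches (51.8%, interval 43.5 to 60.03). CAGCTG was touched at 299 of 840 (35.6%, 32.4 to 38.9), where the base rate for both was 32.6%. CAGATG was touched at 136 of 447 (30.4%, 26.3 to 34.8) and the TEAD site at 86 of 297 (29.0%, 24.1 to 34.4). The AP-1 site was touched at 76 of 242 (31.4%, 25.9 to 37.5, base rate 34.3%). The MEF2 consensus was touched at 7 of 17, too few for a narrow interval (41.2%, 21.6 to 64.0). At the other narrow distal sites CAGCTG was touched at 23.1% and CACGTG at 23.2%, where the base rate was 20.3%, and the CTCF core at 89.3%. At those in the strongest 20%, CAGCTG was touched at 33.8% and CACGTG at 35.8%, where the base rate was 35.0%. The share of CACGTG thus stood well above the base rate in members and close to it in these 2 other classes. The NFY site did likewise, touched at 42 of 87 matches in members (48.3%, base rate 34.3%). Its shares were 20.3% at the other sites (base rate 21.4%) and 35.2% at the strong ones (base rate 36.6%). Touched shares at sites just under the threshold, or of like width, are not given. DNase I also has a preference for some base combinations, and how the footprint caller corrected for it is not stated in the labels or headers, so a low share says nothing about whether a protein was bound.

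**Figure D5:**
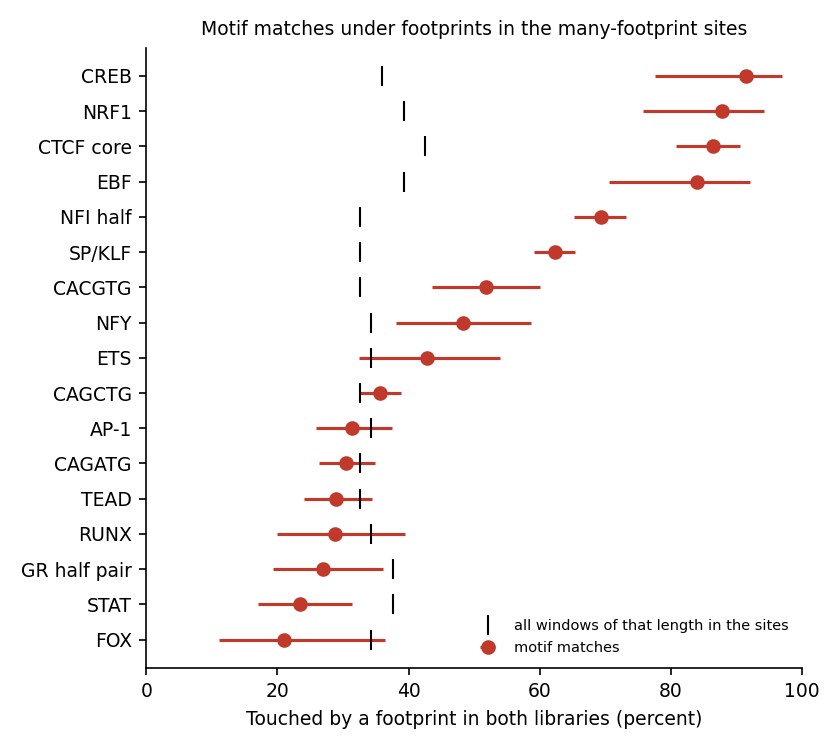
Percent of motif matches in many-footprint sites touched by a footprint in both libraries (red points, Wilson 95% interval) for motifs with at least 30 matches, with the percent of all windows of the same length (black bars). CREB, NRF1, the CTCF core and EBF stood above 80%, and CAGCTG (35.6%) stood close to its bar (32.6%).

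Within 50 kb of the nearest protein-coding TSS lay 1323 members, 4.12% of the 32125 narrow distal sites there. They were nearest to 1140 of 21911 protein-coding genes (5.2%). Of these genes 995 had 1 member, 115 had 2 and 30 had 3 or more. Kdm6b, the H3K27 demethylase gene, had 5 among 13 narrow distal sites, with 29 footprints in replicate 1 and 31 in replicate 2. Tns1, which encodes the focal adhesion protein tensin, had 5 of 28. There were 4 near each of E030018B13Rik (of 5 sites), the betaglycan gene Tgfbr3 (of 17), Zcchc24 (of 20) and the cytokine signalling inhibitor gene Socs3 (of 14).

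Among the distal sites of regulators of the circadian clock, members were 8 of 66 (12.1%, interval 6.27 to 22.1), near 5 of 16 genes. Near Nr1d1, the gene of the repressor REV-ERB alpha, there were 3. The strongest was in an intron (chr11:98773821-98774180), 1.33 kb downstream of a TSS, with 9 footprints in each library and signals of 33.0 and 24.8. It held 3 copies of CACGTG, 2 of them touched in both libraries. The other 2, 8.19 and 6.97 kb upstream, had 6 and 6 footprints at 24.0 and 18.9, and 6 and 5 at 4.68 and 3.87. A site 1108 bp upstream of a TSS of the repressor gene Bhlhe40 had 6 and 6 at 16.2 and 12.6. One 1581 bp downstream of a TSS of Bhlhe41 had 6 and 7 at 5.20 and 4.58. The Bhlhe41 site lay 424 bp from the nearest TSS of any annotated gene. Each held 1 CACGTG that no footprint touched in both libraries. A site near the nuclear receptor gene Rora, with 5 and 7 at 2.15 and 1.52, was the weakest of the 8.

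Muscle transcription factors had 12 of 188 sites (6.38%, interval 3.69 to 10.8) near 8 of 24 genes. Nfib, Nfic and Nfix, which encode 3 of the NFI factors, accounted for 6 of the 12. The strongest, in an intron near Nfib (chr4:82513161-82513440), had 6 and 5 footprints at 18.2 and 14.3. A single member had Myod1, the myogenic determination gene, as its nearest protein-coding gene and lay 34.8 kb upstream (chr7:46341541-46341820). It had 5 and 6 footprints at 3.94 and 3.22 and 1 CAGCTG touched in both libraries. It is named after its values were seen. The sites near Mef2c, Tead1 and Pitx1 had 5 to 7 footprints at signals from 1.44 to 3.62.

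Sarcomere genes had 7 of 108 sites (6.48%, interval 3.17 to 12.8). Near Myom3, the myomesin of the M band (chr4:135801541-135801760), the strongest had 5 and 6 footprints at 6.44 and 5.72, 1007 bp downstream of a TSS. It held a CTCF core and a CAGCTG, both touched in both libraries. In an intron 2.17 kb downstream of a TSS of the filamin C gene Flnc (chr6:29435321-29435580), 7 and 5 footprints stood at 5.11 and 5.92, so this site was stronger in replicate 2. Sites near the skeletal actin gene Acta1 (5 and 7 at 2.79 and 2.66) and the desmin gene Des (5 and 6 at 3.19 and 2.19, 15.2 kb upstream) were weaker. Excitation-contraction coupling genes had 2 of 95 (2.11%, interval 0.579 to 7.35), the Casq1 and Stac3 sites shown above.

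Metabolic genes had 4 of 62 (6.45%, interval 2.54 to 15.4). A site 25.5 kb upstream of Ppara, the gene of a lipid-sensing nuclear receptor, had 5 and 6 footprints at 5.94 and 4.66 and a CTCF core touched in both libraries. One near the aldolase gene Aldoa had 9 and 7 at 4.01 and 2.44, with 3 copies of CAGCTG of which none was touched in both. Atrophy and growth genes had 5 of 98 (5.10%, 2.20 to 11.4). Among them was a site near Foxo3, a regulator of muscle wasting (chr10:42277621-42277900), with 5 and 7 at 20.9 and 15.7. It lay 1006 bp upstream of a TSS, just beyond the 1 kb limit. AP-1 genes had 2 of 39 (5.13%, 1.42 to 16.9), near Fos and near Jund (6 and 6 at 9.91 and 7.45). The Jund site lay 1762 bp downstream of a TSS of Jund and 631 bp from the nearest TSS of any annotated gene. No list was tested against the 4.12% found over all genes, since the lists were chosen with results known and sites near 1 gene are not independent.

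Marker genes of the cell types the tissue could hold were counted in the same way. Of 15 markers of muscle fibres 12 had a promoter site, and 4 of their 61 distal sites were members (6.56%, interval 2.58 to 15.7). The oxygen-binding protein gene Mb had 2 of these, the stronger with 6 and 5 footprints at 4.88 and 4.58. All 8 endothelial, 7 of 8 fibroblast, all 6 pericyte and smooth muscle, and 5 of 8 satellite cell markers had a promoter site. So did 4 of 5 tendon, 3 of 6 Schwann cell, 1 of 5 adipocyte and 1 of 4 erythroid markers. Promoters of some marker genes of other cell types were therefore open in these samples too. Members near them were 1 of 41 endothelial sites (near Kdr), 1 of 38 fibroblast sites (near Dpt), 1 of 13 pericyte and smooth muscle sites (near Myh11) and 0 of 21 satellite cell sites. Schwann cell markers had 4 of 16 (25%, interval 10.2 to 49.5), 3 of them near the myelin gene Mbp. Over all genes 4.12% of the narrow distal sites within 50 kb were members, and no marker list was tested against that share. Tendon markers had 1 of 15 (near Scx), adipocyte markers 0 of 9, and the single distal site near an erythroid marker, Klf1, was a member. None of the 6 macrophage or 4 hepatocyte markers had a promoter site, and 0 of 11 and 0 of 4 distal sites near them were members. Which cells carried each many-footprint site was not tested.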

How the data were processed

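DNase-seq of the gastrocnemius was deposited for 2 libraries of 1 group. Per the labels the files are on mm10 and made per library. No aligner, peak caller or footprint caller is named in the labels or headers. The deposited peak lists give a signal per peak, whose scaling is not stated. The deposited per-base files give q-values (false discovery rates) of the cut rate, listed below 0.05. The deposited footprint lists give only positions and one level, a false discovery rate of 0.01. No read totals were given, so depth is unknown.

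Strict peaks of both libraries were merged at 1 bp overlap (python 3.11.15, numpy 2.4.6). TSSs came from GENCODE M21, sequence from GRCm38. Footprints overlapping a site by at least 1 bp were counted. Motifs were exact matches on either strand; a match counted as touched when a footprint overlapped at least 1 base of it. Overlapping matches were counted separately. The matcher was tested on simulated sequences.

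The group, its motifs and its gene lists were chosen with earlier results of these data known. Sites were named by rule: the 6 with most footprints, the 6 strongest, up to 4 with the most footprints per selected motif, and the 2 strongest per gene list within 50 kb, besides the 5 genes with most members. The remaining members near listed genes were named after their values were seen. The site near one listed gene is not reported here. With 1 group there is no comparison of conditions, and sites are not replicates.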

Additional observations from a re-analysis of the deposited data

How the results depend on the processing

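Requiring 4 footprints in each library gave 6264 sites and requiring 6 gave 499, and joining footprints under 10 bp apart gave 509. Taking sites and footprints of a single library gave 3600 to 4845. The permissive peak lists, the other width limits and the other distances kept the number within 1.5 times 1683. The median of the sites' mean signal, 3.81, was 3.07 at 4 footprints, 4.39 at 6, 4.77 after joining and 2.777 to 2.785 with a single library. The median share of bases covered, 33.2%, was 35.8% (35.75) at a width of at most 300 bp and moved by less than the spread between libraries otherwise.

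Footprints found in both libraries, 75.2% of all, were 76.1% at 6 footprints, 73.8009% wholly inside the site, 77.9% at up to 300 bp, 73.8341% at up to 500 bp and 80.0% (79.97) at 1 bp overlap. The CTCF core, at 10.99%, stood at 13.2% for 4 footprints, 7.41% for 6, 9.07% wholly inside, 7.47% after joining and 8.97% in 150 bp. CAGCTG, at 36.4%, stood at 32.4% for 4 footprints, 41.3% for 6, 39.05% wholly inside, 39.3% after joining, 32.5% at up to 300 bp, 26.02% (26.025) in 150 bp and 32.2% to 34.0% with a single library. Motif matches touched in both libraries, 47.8%, were 45.96% for 4 footprints, 45.6% wholly inside, 53.4% at up to 300 bp, 45.1% at up to 500 bp and 54.6% in 150 bp. With a single library, touched there, they were 56.5% to 56.7%.

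Median GC content, 57.8%, was 56.0% for 4 footprints, 59.25% for 6, 60% after joining, 57.3% beyond 2500 bp and 55.8% to 56.7% with a single library. It was 54.7% under the restriction to GC content below 60% away from annotated TSSs, which itself lowers it. The median TSS distance, 15922 bp, was 13501 bp for 6 footprints and 20378.5 bp beyond 2500 bp, where near sites are removed. The cause of the other shifts was not tested. The restrictions on signal and on GC content were chosen after seeing the data. No paired analysis was possible because all samples belong to 1 group. With 2 libraries, no read totals and no stated callers, neither the spread between animals nor the dependence of footprint calls on depth can be given.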
